A study of Homo sapiens with 96 samples.

Results

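SUDHL4 is a diffuse large B-cell lymphoma line that carries IgG as the immunoglobulin of its B cell receptor (BCR). Described here is how its transcriptional response to anti-IgG antibody, which ligates the BCR, differed from its response to LT20, a mouse antibody against CD20 with a murine Fc part. The comparison rests on 12 of the 96 arrays of the series: 3 of cells given anti-IgG, 3 of untreated cells numbered 4 to 6, 3 of cells given LT20 and 3 of untreated cells numbered 1 to 3. All probe sets were compared as (anti-IgG minus untreated 4-6) minus (LT20 minus untreated 1-3) on the log2 scale. This value is called the difference of responses, and a positive one means a larger rise or a smaller fall with anti-IgG. Both antibodies were whole molecules given to the cell suspension at 10 µg/ml for 4 h. All cells came from 1 line. The methods give 3 replicates and a treated suspension for each array analysis but not whether the replicates were grown as separate cultures, so the p-values measure the spread between arrays, which may be technical. The other arrays hold further antibodies and the lines REC1, OciLy18 and Z138.

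The BCR joins a membrane immunoglobulin to CD79A and CD79B, whose phosphorylated tails recruit the kinase SYK and start calcium, MAPK, NF-kB and PI3K signaling. CD20, the product of MS4A1, is a membrane protein of B cells and the target of the antibody rituximab. Among the first transcripts induced by BCR ligation are the immediate early genes of the EGR, FOS, JUN and NR4A families, together with phosphatases and corepressors that limit MAPK signaling.

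Of 54675 probe sets, 12873 passed the filter for testing, a group mean of more than 100 in any of the 4 groups, and 7107 genes were read by their main probe set, the one with the highest mean over the SUDHL4 arrays. A gene was called at an adjusted p below 0.05 (limma, Benjamini-Hochberg over the 12873 probe sets), a change above 2-fold on the log2(signal + 16) scale and a mean above 100. Each array had been scaled to nearly the same total (8528613 to 8530013), and 10572 to 12209 probe sets per SUDHL4 array had a signal above 100. B cell markers were present on the 12 arrays, with MS4A1 at 3841.5 to 5064.0 and PAX5 at 1141.2 to 2056.7. None of the 6 T cell, 6 monocyte and 6 NK cell markers read here reached the limit for testing, and their summed signals per list were 22 to 68.9. The main probe set of IGHG1 gave 9.6 to 22.7 and was thus low although the line carries surface IgG, while IGKC gave 1143.0 to 1974.6. An isotype control antibody changed 0 genes by limma (218 genes at an unadjusted p below 0.05).

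The responses to anti-IgG and LT20 shared many called genes and differed in size. Anti-IgG raised 186 genes and lowered 256 (2.62% and 3.6% of the 7107 tested), and LT20 raised 128 and lowered 217 (1.8% and 3.05%). Both raised 102 genes, both lowered 163, and 0 genes were raised by one and lowered by the other. Called with anti-IgG alone were 84 raised and 93 lowered genes, and with LT20 alone 26 raised and 54 lowered ones. A call with 1 antibody alone does not show that the responses differ. The difference of responses was called in 11, 2, 3 and 0 of these genes in the same order. The rise was larger with anti-IgG in 77 of the 102 genes that both raised, with a median excess of 0.32 log2 (1.25-fold). Among the 163 genes that both lowered, the fall was larger with anti-IgG in 114, with a median excess of 0.12 log2 (1.08-fold). Across all genes the 2 changes correlated at r = 0.903, which is a description since genes are not independent replicates. The median difference over all genes was 0.01 log2 with an SD of 0.24.

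Gene by gene, the difference of responses was called in 35 genes, higher with anti-IgG in 21 (0.295% of those tested) and lower in 14 (0.197%). Its median size was 2.41-fold in the 21 genes and 2.23-fold in the 14. Without the limit of 2-fold, 508 genes (7.15%) passed the adjusted p, of which 318 were higher and 190 lower with anti-IgG. For 6940 genes, 97.7% of those tested, the 95% interval of the difference lay within 2-fold in either direction. Most tested genes, 6585, were called with neither antibody. Among the 102 genes that both raised the interval lay within 2-fold in 74, and among the 163 that both lowered in 152. Of the 21 genes 10 had been raised by both antibodies and 11 were called with anti-IgG alone. Of the 14 genes 6 had been lowered by both antibodies and 2 by anti-IgG alone, 3 had been raised by LT20 alone and 3 were called with neither. In all 35 the 3 changes with anti-IgG lay beyond the 3 changes with LT20, each array being set against the mean of its untreated arrays. This was read in the called genes only and on the arrays that gave the call. It follows in large part from the call and adds no support to it. The call was kept without any single one of the 12 arrays in 19 genes and lost without at least 1 array in 16.

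**Figure D1:**
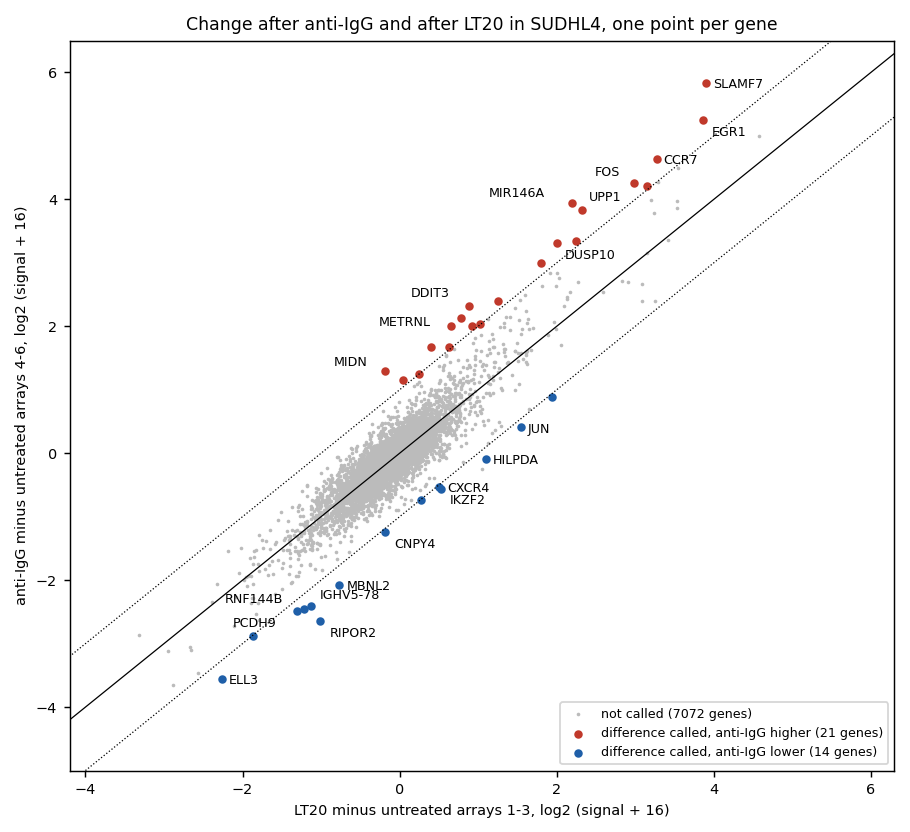
Log2 change of each of the 7107 genes after anti-IgG (vertical axis, against untreated 4-6) and after LT20 (horizontal axis, against untreated 1-3), on the log2(signal + 16) scale, with a solid line at equal changes and dotted lines at a 2-fold difference. The 21 genes higher with anti-IgG (red) lie above the upper dotted line and the 14 lower ones (blue) below the lower one, while most genes lie along the solid line.

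The untreated triplicates were not alike, and their offset is part of the difference of responses. Untreated 4-6 were higher than untreated 1-3 in 46 genes (0.647%) and lower in 26 (0.366%), with an SD of 0.34 log2 over all genes. Set directly against the LT20 arrays, with no control, the anti-IgG arrays were higher in 98 genes (1.38%) and lower in 50 (0.704%). An offset that the anti-IgG arrays share with untreated 4-6, or the LT20 arrays with untreated 1-3, would remain in this direct value. Whether they share it was not tested, so the direct value is not the cleaner of the 2. Of the 35 genes, 24 were called in this direct comparison and 34 had the same direction in it. That follows in large part from the call, made on the same treated arrays, and adds no support to it. The exception was ANKRD33B, which gave 122.5, 134.8 and 133.0 with anti-IgG and 7.1, 24 and 23.7 in untreated 4-6, against 161.6, 175.7 and 184.7 with LT20 and 90.1, 89.0 and 104.5 in untreated 1-3. Its anti-IgG arrays lay below its LT20 arrays, so its difference of 1.35 log2 came with untreated triplicates that differed by -1.73 log2.

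SLAMF7, a surface receptor of the SLAM family found on plasma cells, had the largest difference. Its signal was 1089.3, 1089.9 and 1106.5 with anti-IgG and 9.2, 2.1 and 0.0 in untreated 4-6, against 331.8, 268.5 and 312.3 with LT20 and 2.9, 8.6 and 5.1 in untreated 1-3. Every anti-IgG array stood above every LT20 array, and these far above all untreated ones. The log2 change was 5.84 with anti-IgG and 3.90 with LT20, a difference of 1.94 ± 0.19 (SE, adjusted p = 3.77e-07 by limma). CCR7, the chemokine receptor that guides lymphocytes to T cell zones, gave 437.1, 499.8 and 464.0 with anti-IgG and 1.0, 4.2 and 4.9 in untreated 4-6, against 171.2, 191.0 and 186.6 with LT20 and 3.9, 4.8 and 5.1 in untreated 1-3. Its groups were ordered in the same way, and its rise was 2.59-fold larger with anti-IgG (adjusted p = 1.09e-06 by limma).

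CXCR4, the receptor for CXCL12, went the other way. Its signals were 712.1, 702.6 and 832.8 with anti-IgG and 1057.5, 1100.7 and 1096.5 in untreated 4-6, against 2370.3, 2309.9 and 2538.4 with LT20 and 1752.0, 1612.5 and 1697.7 in untreated 1-3. The anti-IgG arrays were the lowest of the 12 and the LT20 arrays the highest. Neither change was called, at -0.53 log2 with anti-IgG and 0.51 with LT20, but the difference of -1.04 was (adjusted p = 4.41e-05 by limma), though not without LT20 replicate 3 (-1.0) or anti-IgG replicate 2 (-0.99). Its untreated triplicates differed by -0.63 log2. Of the 19 activation and adhesion surface markers tested, CCR7 and SLAMF7 were called higher and CXCR4 lower, beside 0.295% and 0.197% of all genes. The list median was 0.19 log2, beside 0.01 over all genes. At a smaller size the adjusted p was also passed by IL2RG, the common gamma chain of cytokine receptors (0.53 log2), CD48, a ligand of SLAM family receptors (0.47), and CXCR5, which guides B cells to follicles (-0.55).

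The immediate early genes had the highest median of the lists read. Beside 2.62% and 1.8% of all genes, anti-IgG raised 12 of the 18 tested members and LT20 10, and none fell. Their median difference was 0.76 log2. At the adjusted p alone 10 were higher and 1 lower with anti-IgG, beside 318 and 190 of all 7107 genes. Past 2-fold, EGR1, FOS, NR4A1 and GEM were higher with anti-IgG and JUN was lower, beside 0.295% and 0.197% of all genes. EGR1, a zinc finger transcription factor induced through MAPK, gave 1164.6, 1049.3 and 1050.2 with anti-IgG and 8.1, 14.6 and 16.8 in untreated 4-6, against 420.2, 546.0 and 501.7 with LT20 and 15.7, 19.1 and 21.3 in untreated 1-3. All treated arrays were far above all untreated ones, and the rise was 2.63-fold larger with anti-IgG (difference 1.39 ± 0.17 log2, SE, adjusted p = 1.08e-05 by limma).

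The promoter of EGR1 is shown because serum response elements are textbook sites of induction through MAPK. The window reaches from 250 bases before to 50 bases after the start site, on the plus strand of GRCh38.p14 at chr5:138465229-138465528 (RefSeq), and the capitals mark the letters CATATTAGG.
EGR1: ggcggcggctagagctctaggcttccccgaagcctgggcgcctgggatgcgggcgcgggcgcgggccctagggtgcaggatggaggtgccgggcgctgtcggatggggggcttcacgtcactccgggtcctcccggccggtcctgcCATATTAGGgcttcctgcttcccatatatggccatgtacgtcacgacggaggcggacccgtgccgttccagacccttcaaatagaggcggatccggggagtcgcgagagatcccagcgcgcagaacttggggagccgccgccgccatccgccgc
These letters, searched on both strands like all motifs below, were found in 28 of 35116 promoters (0.0797%) and, of the 15 genes higher with anti-IgG that the table holds, in EGR1. The related letters CATATAAGG were in 49 promoters (0.14%) and in 0 of the 15. The shares of promoters count windows, while the 15 are genes, some of them with several windows. The match is a description of this window.

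FOS, a partner of JUN in the AP-1 factor, gave 350.2, 352.8 and 340.7 with anti-IgG and 2.0, 3.1 and 3.9 in untreated 4-6, against 125.0, 104.5 and 127.5 with LT20 and 1.0, 1.0 and 1.0 in untreated 1-3. The anti-IgG arrays exceeded the LT20 arrays by 1.43 log2. The difference of responses was 1.27 log2 (adjusted p = 9.02e-06 by limma) but depended on how untreated signals near 0 were read, and was 0.01 with signals below 1 set to 1 and nothing added. NR4A1, an orphan nuclear receptor induced by antigen receptors, gave 700.5, 840.5 and 762.0 with anti-IgG and 29.5, 28.2 and 21.7 in untreated 4-6, against 253.9, 176.6 and 190.4 with LT20 and 13.7, 8.6 and 5.1 in untreated 1-3. Its anti-IgG arrays again exceeded its LT20 arrays, by 1.83 log2. Its difference of 1.06 log2 (adjusted p = 0.00109 by limma) was 0.27 with the same floor, and it was not called without untreated replicate 1 (0.93), LT20 replicate 2 (0.96), anti-IgG replicate 2 (0.99) or untreated replicate 6 (0.98). GEM, a small GTPase, averaged 148.2 ± 13.6 with anti-IgG and 4.8 ± 4.25 in untreated 4-6, against 56.6 ± 3.78 with LT20 and 4.9 ± 1.73 in untreated 1-3 (SD, n = 3 each). Its rise of 3.48-fold with LT20 was not called because the mean stayed below 100, and its difference was 1.2 log2.

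Further immediate early genes were higher with anti-IgG by less than 2-fold. IER2, a nuclear protein of the early response, averaged 2540.6 ± 48.5 with anti-IgG and 600.7 ± 36.2 in untreated 4-6, against 1930.2 ± 80.8 with LT20 and 761.8 ± 62.6 in untreated 1-3 (SD, n = 3 each), a difference of 0.73 log2 (adjusted p = 3.07e-05 by limma) that combined 0.39 between the treated groups with -0.33 between the untreated ones. The Krüppel-like factors KLF6 and KLF10 differed by 0.90 and 0.81 log2, the transcription factor EGR3 by 0.79, the inhibitor of helix-loop-helix factors ID3 by 0.79 and ZFP36, which destabilizes AU-rich mRNAs, by 0.82.

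JUN was the one member lower with anti-IgG at the adjusted p. Its probe set gave 36.7, 38.5 and 37.9 with anti-IgG and 25.4, 32.3 and 16.8 in untreated 4-6, against 95.2, 118.9 and 100.3 with LT20 and 29.4, 19.1 and 28.4 in untreated 1-3. The LT20 arrays stood apart from the other 9. LT20 raised JUN 2.91-fold, the change of 1.33-fold with anti-IgG was not called, and the difference was -1.13 log2 (adjusted p = 0.00196 by limma), though not called without LT20 replicate 2 (-1.05) or untreated replicate 5 (-1.0). The probe sets of JUN, NR4A1 and RIPOR2 bear the array's suffix for probes that may also match other transcripts.

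**Figure D2:**
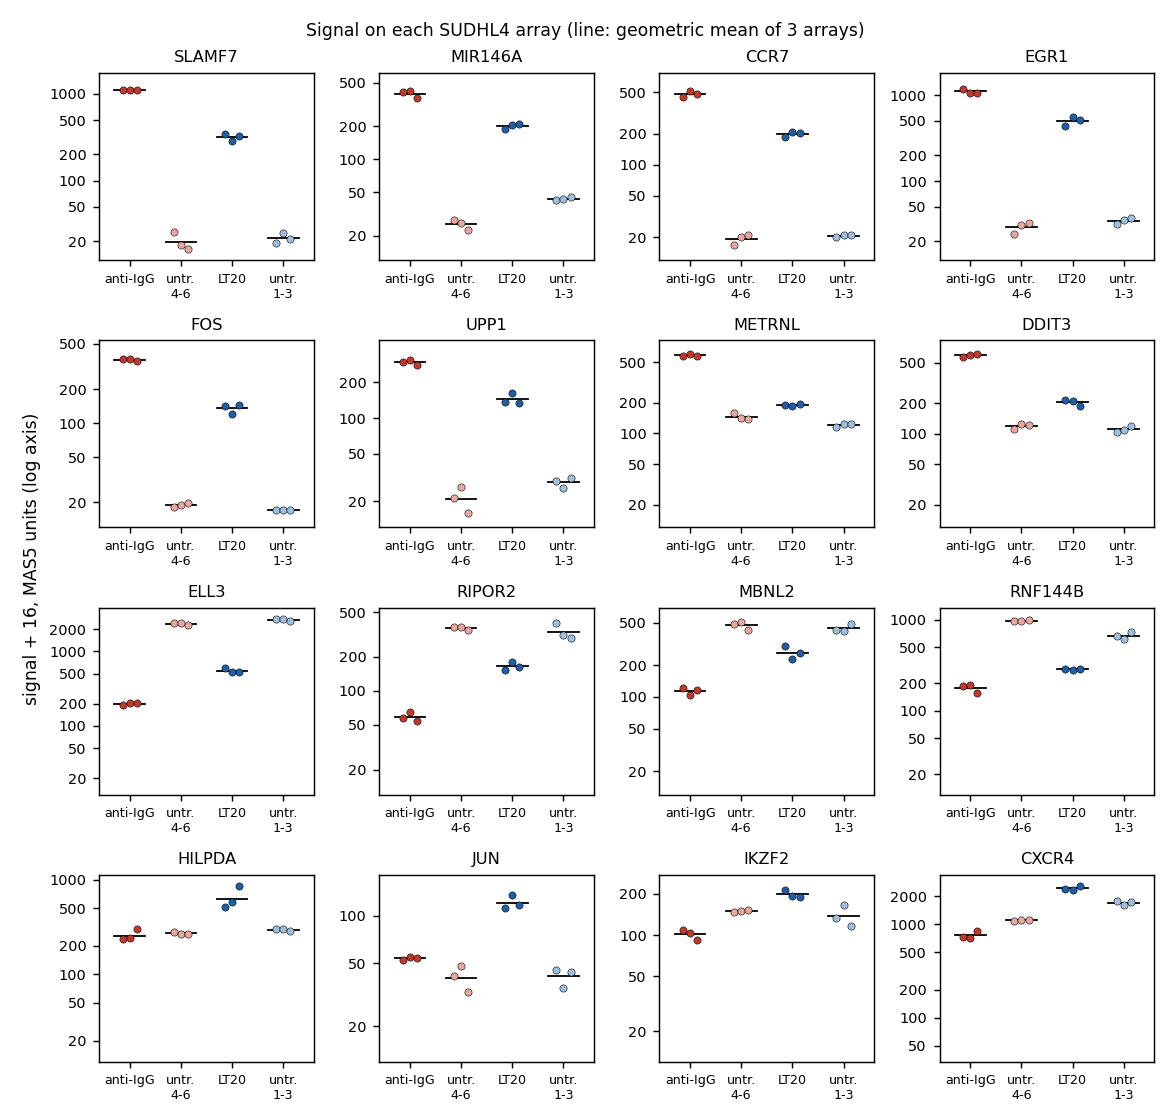
Signal + 16 (log axis, MAS5 units) on each of the 12 arrays for 16 genes, with anti-IgG, untreated 4-6, LT20 and untreated 1-3 from left to right; points are arrays and lines geometric means of 3 arrays. In the 8 upper genes the anti-IgG arrays are the highest, in ELL3, RIPOR2, MBNL2 and RNF144B they are the lowest, and in HILPDA and JUN the LT20 arrays stand above the other 9.

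Of 9 tested EGR corepressors and MAPK feedback genes, 5 rose with anti-IgG and 5 with LT20, beside 2.62% and 1.8% of all genes. The difference was called in 1 member, higher with anti-IgG, beside 0.295% of all genes. It passed the adjusted p in 5, all higher with anti-IgG, beside 318 higher of all 7107 genes. The list median was 0.40 log2. DUSP10, a phosphatase of p38 and JNK, was the one called, with 405.2, 421.8 and 381.5 with anti-IgG and 31.5, 24 and 23.7 in untreated 4-6, against 194.2, 170.3 and 179.1 with LT20 and 32.3, 34.4 and 32.5 in untreated 1-3. Its groups did not overlap, and its rise was 2.47-fold larger with anti-IgG (adjusted p = 2.7e-05 by limma). The adjusted p alone was passed by DUSP5, a nuclear phosphatase of ERK (0.98 log2), NAB2, a corepressor of EGR factors (0.93), DUSP2, another nuclear MAPK phosphatase (0.83), and the pseudokinase TRIB1 (0.40).

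MIR146A, the gene of a microRNA induced by NF-kB, had the second largest difference. The array reads the transcript annotated to this gene and not the mature microRNA, whose sequence (RefSeq, GRCh38.p14, chr5:160485372-160485393, plus strand) is shown to identify it, with its seed, bases 2 to 8, in capitals.
hsa-miR-146a-5p: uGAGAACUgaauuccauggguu
The probe set gave 392.7, 407.6 and 345.5 with anti-IgG and 12.2, 10.4 and 6.9 in untreated 4-6, against 172.1, 188.3 and 193.2 with LT20 and 26.5, 27.7 and 29.4 in untreated 1-3. The treated groups did not overlap, nor did the untreated ones. The difference was 1.76 ± 0.14 log2 (SE, adjusted p = 1.64e-08 by limma), and it combined 0.99 log2 between the treated groups with -0.77 between the untreated ones. Among 15 tested NF-kB subunits, targets and regulators, 4 rose with anti-IgG and 3 with LT20, beside 2.62% and 1.8% of all genes. None was called for the difference, and the list median was 0.18 log2. NFKBID, a nuclear IkB protein, was the member that passed the adjusted p (0.81 log2), beside 7.15% of all genes in either direction.

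UPP1 encodes uridine phosphorylase, an enzyme of pyrimidine salvage. Its signals were 277.9, 295.0 and 265.0 with anti-IgG and 5.1, 10.4 and 0.0 in untreated 4-6, against 120.2, 146.8 and 117.2 with LT20 and 13.7, 9.6 and 15.2 in untreated 1-3. Both antibodies raised it, and the rise was 2.85-fold larger with anti-IgG (adjusted p = 8.85e-05 by limma). Its untreated signals were near 0, and the difference of 1.51 log2 was 2.88 with signals below 1 set to 1 and 0.99, no longer called, with 64 added. Between the treated groups alone it was 1.04 log2. DDIT3, the stress transcription factor CHOP, gave 558.6, 586.0 and 592.1 with anti-IgG and 95.6, 108.5 and 105.5 in untreated 4-6, against 200.0, 196.4 and 172.5 with LT20 and 89.2, 93.7 and 104.5 in untreated 1-3. It rose 4.99-fold with anti-IgG, and the change of 1.84-fold with LT20 was not called (difference 1.44 log2, adjusted p = 7.07e-07 by limma). METRNL, a secreted factor, had a like pattern, with means of 566.9 ± 16.8 with anti-IgG and 129.6 ± 11.2 in untreated 4-6, against 173.8 ± 5.54 with LT20 and 105.2 ± 4.69 in untreated 1-3 (SD, n = 3 each) and a difference of 1.36 log2 (adjusted p = 2.82e-07 by limma).

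MIDN encodes midnolin, which carries nuclear proteins to the proteasome. It gave 363.8, 397.4 and 403.8 with anti-IgG and 168.8, 126.2 and 155.8 in untreated 4-6, against 165.4, 160.4 and 186.6 with LT20 and 203.8, 192.2 and 194.7 in untreated 1-3. The anti-IgG arrays were above the other 9. The gene rose 2.44-fold with anti-IgG, the change with LT20 was -0.19 log2 and not called, and the difference was 1.48 log2 (adjusted p = 8.84e-08 by limma). LSR, a lipoprotein receptor, averaged 226.1 ± 5.26 with anti-IgG and 93.0 ± 4.01 in untreated 4-6, against 90.1 ± 15.1 with LT20 and 86.2 ± 4.52 in untreated 1-3 (SD, n = 3 each), again with the anti-IgG arrays above the other 9. CCL4, a chemokine for T cells and monocytes, averaged 409.9 ± 44.0 with anti-IgG and 90.0 ± 4.29 in untreated 4-6, against 194.1 ± 27.0 with LT20 and 94.2 ± 9.09 in untreated 1-3 (SD, n = 3 each). Its difference of 1.08 log2 was called (adjusted p = 3.06e-05 by limma), though not without LT20 replicate 1 (0.97) or anti-IgG replicate 3 (0.99). VASP, an actin regulator, rose 5.25-fold with anti-IgG and 2.39-fold with LT20.

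The other genes called higher with anti-IgG lost their call when single arrays were left out. HAVCR2, the inhibitory receptor TIM-3, had a difference of 1.10 log2 and was not called without LT20 replicate 3 (0.92). CD1C, which presents lipids, had 1.27 log2 and was not called without untreated replicate 3 (1.05), LT20 replicate 2 (1.11) or untreated replicate 4 (1.05). SERTAD1, a transcriptional coregulator, had 1.04 log2 and was not called without LT20 replicate 1 (1.0) or untreated replicate 6 (0.90). The CDK inhibitor CDKN1A had 1.01 log2 and was not called without untreated replicate 3 (0.88), LT20 replicate 2 (0.93), anti-IgG replicate 1 (0.96), anti-IgG replicate 2 (0.94) or untreated replicate 4 (0.87). PTGER4, a prostaglandin E2 receptor, had 1.0 log2 and was not called without untreated replicate 1 (1.0), untreated replicate 3 (0.93), LT20 replicate 2 (0.96), anti-IgG replicate 1 (0.99) or untreated replicate 4 (0.97). The differences of CDKN1A and PTGER4 lay just past the limit of 2-fold. Between the treated groups alone they were 0.57 and 0.43 log2, with -0.44 and -0.57 between the untreated ones, and with the untreated triplicates exchanged they were 0.13 and -0.13.

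**Figure D3:**
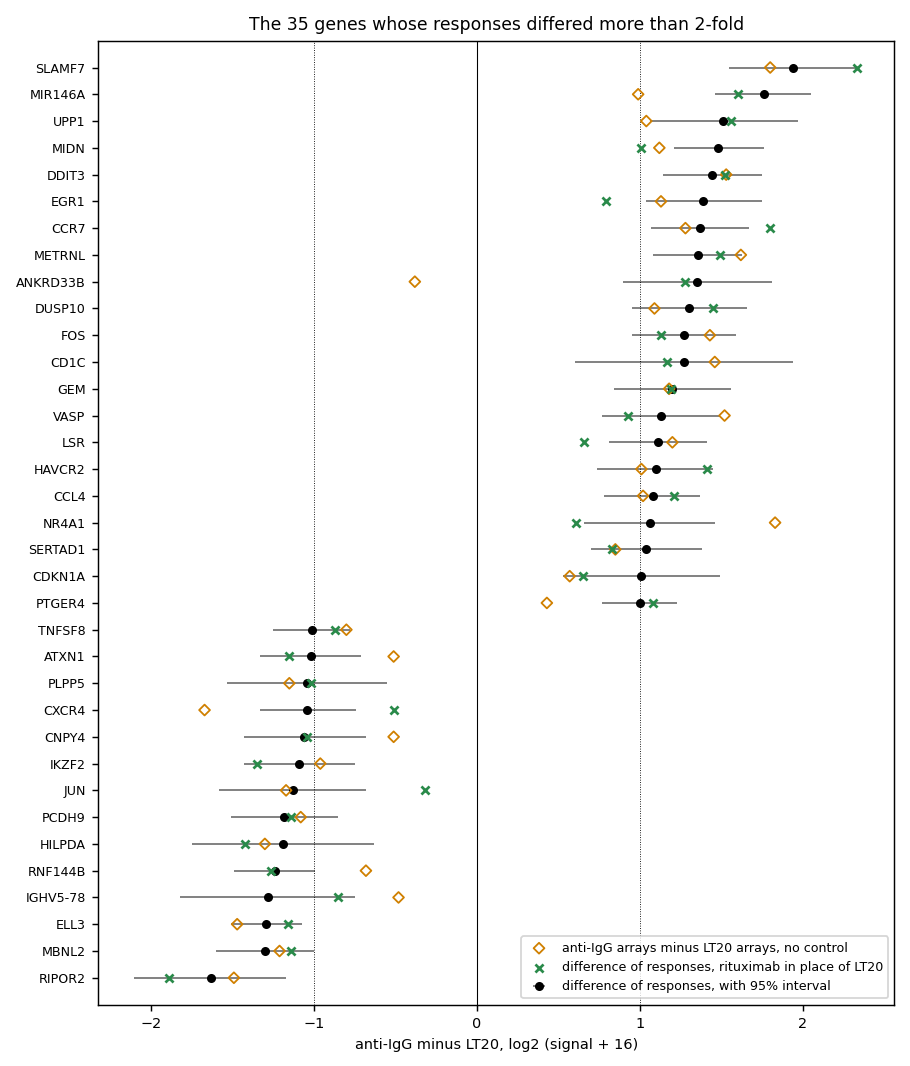
Difference of responses of the 35 called genes (black points, log2, with 95% intervals), beside the direct difference between anti-IgG and LT20 arrays with no control (orange diamonds) and the difference with rituximab in place of LT20 (green crosses, which share the anti-IgG arrays and all untreated arrays with the black points). The values run from 1.94 for SLAMF7 to -1.63 for RIPOR2, and ANKRD33B is the gene whose direct difference, -0.38, lies on the other side of 0.

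The promoters of UPP1 and MBNL2, a gene that fell more with anti-IgG, are shown for their matches to the letters TGANTCA of the AP-1 site, which FOS and JUN dimers bind. Both windows are 300 bases of GRCh38.p14 on the plus strand (RefSeq), UPP1 at chr7:48088454-48088753 and MBNL2 at chr13:97141584-97141883, with the matches in capitals.
UPP1: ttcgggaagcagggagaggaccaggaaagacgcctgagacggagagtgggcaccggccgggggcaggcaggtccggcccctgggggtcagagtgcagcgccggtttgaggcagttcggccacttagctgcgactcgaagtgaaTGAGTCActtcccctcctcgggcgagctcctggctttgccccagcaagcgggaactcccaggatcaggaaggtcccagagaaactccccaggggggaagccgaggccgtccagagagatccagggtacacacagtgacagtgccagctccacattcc
MBNL2: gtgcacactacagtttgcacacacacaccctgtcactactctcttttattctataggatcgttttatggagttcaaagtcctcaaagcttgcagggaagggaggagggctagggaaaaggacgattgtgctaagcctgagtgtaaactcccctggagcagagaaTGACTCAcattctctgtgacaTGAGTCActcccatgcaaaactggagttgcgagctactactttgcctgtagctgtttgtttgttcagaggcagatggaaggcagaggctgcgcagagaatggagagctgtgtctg
The match in UPP1 began 107 bases before the start site, and those in MBNL2 began 86 and 65 bases before it. UPP1 has 3 start sites in the table, of which 1 held a match to any motif searched, and RIPOR2 has 5, of which 2 did. TGANTCA was found in 2707 of 35116 promoters (7.71%), in 2 of the 15 genes higher and in 2 of the 10 genes lower with anti-IgG that the table holds. For the kB letters GGNNTTTCC the counts were 0 of 15 and 2 of 10 (6.26% of all promoters), for the EGR letters GCGGGGGCG 1 of 15 and 2 of 10 (5.07%), and for the CRE letters TGACGTCA 0 of 15 and 0 of 10 (1.85%). The shares of all promoters count windows, whereas the members are genes with a match in any of their windows. A gene with more start sites has more windows to match, so the 2 are not like for like. A match describes the window only.

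ELL3, an elongation factor for RNA polymerase II, had the smallest adjusted p of the genes lower with anti-IgG. Its signals were 176.6, 187.6 and 188.3 with anti-IgG and 2360.0, 2405.9 and 2240.4 in untreated 4-6, against 577.9, 521.6 and 519.5 with LT20 and 2711.2, 2701.9 and 2558.7 in untreated 1-3. Both antibodies lowered it in every array, anti-IgG 11.75-fold and LT20 4.81-fold, and the difference was -1.29 ± 0.11 log2 (SE, adjusted p = 1.74e-08 by limma). RNA of the whole culture was measured, so fewer cells with a transcript and less of it per cell cannot be told apart here or in any gene described.

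RIPOR2 gave 41.5, 48.7 and 37.9 with anti-IgG and 356.9, 356.8 and 333.3 in untreated 4-6, against 136.6, 164.0 and 147.2 with LT20 and 382.1, 295.5 and 278.9 in untreated 1-3. The levels with anti-IgG, with LT20 and without treatment did not overlap. The fall was 6.24-fold with anti-IgG and 2.01-fold with LT20 (difference -1.63 log2, adjusted p = 4.18e-05 by limma). MBNL2, a regulator of splicing, gave 105.2, 87.2 and 101.0 with anti-IgG and 470.8, 498.7 and 416.1 in untreated 4-6, against 289.4, 211.7 and 241.9 with LT20 and 416.4, 402.7 and 474.6 in untreated 1-3. It fell 4.2-fold with anti-IgG, the change of 1.7-fold with LT20 was not called, and the difference was -1.30 log2 (adjusted p = 2.99e-06 by limma). PCDH9, a protocadherin, averaged 56.9 ± 16.4 with anti-IgG and 384.5 ± 15.9 in untreated 4-6, against 135.3 ± 5.5 with LT20 and 357.8 ± 26.9 in untreated 1-3 (SD, n = 3 each), and its difference of -1.18 log2 was not called without anti-IgG replicate 3 (-0.99).

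RNF144B, a ubiquitin ligase linked to p53, gave 168.8, 176.4 and 141.7 with anti-IgG and 948.7, 951.5 and 974.2 in untreated 4-6, against 270.2, 266.7 and 270.1 with LT20 and 637.9, 594.9 and 706.9 in untreated 1-3. Both antibodies lowered it, and its untreated triplicates did not overlap. Its difference of -1.24 log2 (adjusted p = 2.82e-07 by limma) combined -0.68 between the treated groups with 0.56 between the untreated ones. TNFSF8, the ligand of CD30, averaged 15.4 ± 2.49 with anti-IgG and 215.0 ± 11.4 in untreated 4-6, against 38.6 ± 0.80 with LT20 and 182.8 ± 4.90 in untreated 1-3 (SD, n = 3 each), and its difference of -1.01 log2 was not called without untreated replicate 3 (-0.99), anti-IgG replicate 1 (-0.97), anti-IgG replicate 3 (-1.0) or untreated replicate 4 (-0.99). IGHV5-78, an immunoglobulin variable region pseudogene, averaged 27.2 ± 3.73 with anti-IgG and 214.9 ± 23.8 in untreated 4-6, against 45.2 ± 13 with LT20 and 119.1 ± 36.1 in untreated 1-3 (SD, n = 3 each). It belongs to a family of near copies whose transcripts its probes could share, so its identity is uncertain, and the untreated triplicates differed by 0.80 log2, beside a difference of -1.28 log2. CNPY4, of the canopy family, was called lower with anti-IgG alone (2.36-fold), and its difference of -1.06 log2 was not called without untreated replicate 3 (-0.91), LT20 replicate 3 (-1.0), anti-IgG replicate 3 (-1.0) or untreated replicate 5 (-0.99).

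HILPDA, a lipid droplet protein, was raised by LT20, and its change with anti-IgG was not called. Its signals were 220.0, 224.1 and 281.5 with anti-IgG and 264.4, 253.5 and 252.4 in untreated 4-6, against 501.9, 556.8 and 828.0 with LT20 and 282.2, 281.2 and 272.8 in untreated 1-3. The LT20 arrays were above the other 9 but spread widely, and the rituximab arrays were likewise high, at 701.5, 463.7 and 1173.7. The difference of -1.19 log2 (adjusted p = 0.00799 by limma) was not called without LT20 replicate 3 (-0.98). PLPP5, a lipid phosphatase, gave 37.6, 51.7 and 38.8 with anti-IgG and 19.3, 20.9 and 7.9 in untreated 4-6, against 122.1, 136.9 and 87.2 with LT20 and 14.7, 17.2 and 22.3 in untreated 1-3. LT20 raised it, and its difference of -1.04 log2 was not called without untreated replicate 1 (-0.97), LT20 replicate 1 (-1.0), LT20 replicate 2 (-0.92), anti-IgG replicate 1 (-0.98), anti-IgG replicate 3 (-1.0), untreated replicate 4 (-0.96) or untreated replicate 5 (-0.93). IKZF2, the zinc finger factor Helios, gave 92.6, 88.2 and 75.7 with anti-IgG and 131.2, 133.6 and 137.1 in untreated 4-6, against 195.2, 175.7 and 174.4 with LT20 and 117.6, 149.2 and 101.4 in untreated 1-3. Its anti-IgG arrays lay below their untreated arrays and its LT20 arrays above theirs, neither change was called, and the difference of -1.09 log2 was not called without untreated replicate 3 (-0.98). ATXN1, ataxin 1, also had a called difference (-1.02 log2) with neither change called, and it was not called without untreated replicate 1 (-0.95), LT20 replicate 1 (-0.99), anti-IgG replicate 1 (-0.96), anti-IgG replicate 3 (-0.94) or untreated replicate 6 (-0.98).

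Differences below 2-fold were found in chaperone, stress and lysosomal genes. Over all 7107 genes, 318 were higher and 190 lower at the adjusted p (508 genes, 7.15%). Of 18 ER chaperones and unfolded protein response genes none was called with either antibody, but 6 passed the adjusted p for the difference, all higher with anti-IgG, and the list median was 0.36 log2. They included HSPA5, the chaperone BiP (0.66 log2), its cochaperone DNAJB11 (0.63) and CRELD2 (0.72). HSPA5 averaged 2814.3 ± 115.2 with anti-IgG and 1931.6 ± 24.4 in untreated 4-6, against 2141.2 ± 187.9 with LT20 and 2332.4 ± 220.3 in untreated 1-3 (SD, n = 3 each). The list median was 0.15 between the treated groups and -0.23 between the untreated ones, whose offset is thus part of its value. Of 10 genes of the integrated stress response 4 were higher at the adjusted p, among them SLC7A11, a cystine transporter (0.96 log2), and PPP1R15A, a phosphatase subunit that restores translation (0.63). Of 15 endosome and lysosome genes 7 rose with anti-IgG and 6 with LT20, beside 2.62% and 1.8% of all genes. The median difference of the list was 0.10. At the adjusted p 4 were higher and 1 lower with anti-IgG. The autophagy receptor SQSTM1 (0.82 log2), the cholesterol transporter NPC1 (0.71) and the sialidase NEU1 (0.67) were raised by both antibodies and more by anti-IgG. The membrane protein LAMP1 (0.29) was the other one higher, and PSAP, the precursor of the saposins (-0.34), was the one lower.

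**Figure D4:**
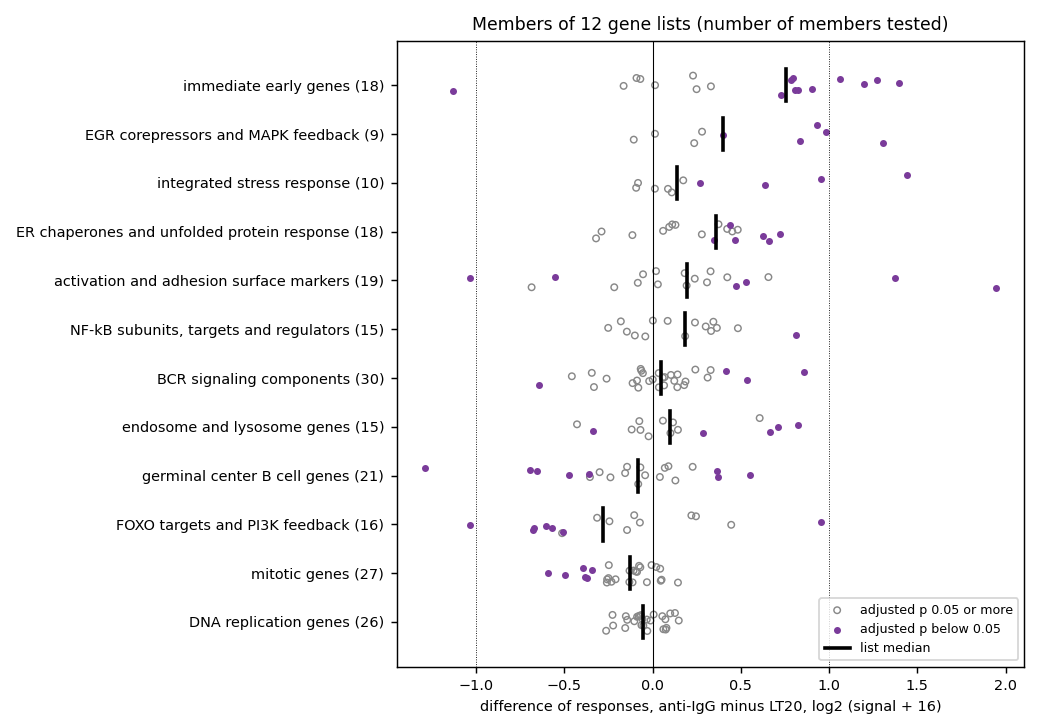
Difference of responses (log2) of each tested member of 12 gene lists, with the list median as a bar and members at an adjusted p below 0.05 filled. The medians run from 0.76 for the immediate early genes to -0.28 for the FOXO targets, beside 0.01 over all 7107 genes.

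FOXO targets and PI3K feedback genes had the lowest median, -0.28 log2 over 16 tested genes. At the adjusted p 6 were lower and 1 higher with anti-IgG, beside 190 lower and 318 higher of all 7107 genes. The lower ones included PIK3IP1, an inhibitor of PI3K (-0.68 log2), TXNIP, an inhibitor of glucose uptake (-0.67), SESN3, a sestrin (-0.61), and the CDK inhibitor CDKN1B (-0.50), besides CXCR4. The list median was -0.65 between the treated groups and -0.23 between the untreated ones. SGK1, a kinase activated through PI3K, was the one higher. It averaged 1798.7 ± 42.2 with anti-IgG and 64.7 ± 10.2 in untreated 4-6, against 940.4 ± 32.8 with LT20 and 65.9 ± 5.23 in untreated 1-3 (SD, n = 3 each), a difference of 0.95 log2 (adjusted p = 3.07e-05 by limma).

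Of 21 germinal center B cell genes anti-IgG lowered 10 and LT20 11, beside 3.6% and 3.05% of all genes. The median difference of the list was -0.08 log2. At the adjusted p 5 were lower and 3 higher with anti-IgG, beside 190 and 318 of all 7107 genes. Besides ELL3 the lower ones included KLHL14 (-0.70 log2) and the ectoenzyme VNN2 (-0.65), and the higher ones were the cofactor LMO2 (0.55), the peptidase MME (0.37) and the repressor BACH2 (0.37). LMO2 averaged 239.2 with anti-IgG and 82.9 in untreated 4-6, against 411.5 with LT20 and 230.7 in untreated 1-3. Its anti-IgG mean lay below its LT20 mean, so its positive value came with untreated triplicates that differed. Of 21 B cell transcription factors, with a median of 0.08, ETS1 (-0.74 log2), IRF8 (-0.64), TCF4 (-0.63) and IKZF1 (-0.37) were lower and STAT3 (0.56) and ID2 (0.46) higher. TNFRSF17, the receptor BCMA of plasma cells, fell with both antibodies and further with anti-IgG (-0.90 log2), and the plasma cell list had a median of -0.07. The 27 mitotic genes had a median of -0.13 log2, with 6 lower at the adjusted p, among them the kinesin KIF20A (-0.59) and the kinase PLK1 (-0.49), while none of 26 DNA replication genes passed (median -0.05).

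Of 11 tested p53 targets 4 were higher and 2 lower with anti-IgG at the adjusted p, beside 318 and 190 of all 7107 genes. The list median was 0.13 log2. The higher ones were CDKN1A, the death effector BAX (0.68 log2), the zinc finger protein ZMAT3 (0.52) and the death receptor TNFRSF10B (0.33), and the lower ones were TP53INP1 (-0.91) and the ribonucleotide reductase subunit RRM2B (-0.65). Between the treated groups alone BAX was -0.05 and ZMAT3 -0.48 log2, so their higher values came with untreated triplicates that differed by -0.73 and -1.0. Values between the treated groups have no control and keep any offset that treated and untreated arrays share. Of 14 BCL2 family and death regulators 3 were higher and 1 lower (median 0.17). The higher ones were BAX, TNFRSF10B and BCL2L11, the killer protein BIM (0.60 log2, and 0.11 between the treated groups), and RNF144B was the one lower. P2RY8, a G protein-coupled receptor of germinal center B cells, was -0.74 log2, in a list of G protein signaling regulators with a median of -0.22. The median was 0.20 log2 for chemokines and cytokines, 0.15 for inhibitory receptors and phosphatases, 0.12 for ribosome biogenesis, 0.02 for cholesterol synthesis and 0.02 for cAMP and calcium signaling. It was -0.06 for glycolysis, -0.11 for MHC class II presentation and -0.12 for 3 interferon-stimulated genes.

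The genes of the BCR itself gave no called difference. Of 30 tested BCR signaling components 6 fell with anti-IgG and 5 with LT20, beside 3.6% and 3.05% of all genes. The median difference of the list was 0.05 log2. CD79B averaged 259.3 ± 22.8 with anti-IgG and 823.6 ± 54.7 in untreated 4-6, against 253.8 ± 26.7 with LT20 and 636.2 ± 17.5 in untreated 1-3 (SD, n = 3 each), fell with both antibodies and had a difference of -0.33 log2 (interval -0.63 to -0.03, adjusted p = 0.174 by limma). BLK, a kinase of the SRC family, fell 3.34-fold with anti-IgG and 3.5-fold with LT20, with a difference of 0.07 log2 (interval -0.25 to 0.38). FCGR2B, the inhibitory Fc receptor of B cells, fell 3.1-fold with anti-IgG and 3.63-fold with LT20, with a difference of 0.23 log2 (interval -0.05 to 0.51). SYK was called with neither antibody and had a difference of 0.19 log2 (interval -0.08 to 0.45). MS4A1, which encodes the target of LT20, was not called with either, and its difference was -0.07 log2 (interval -0.26 to 0.13). All these intervals lay within 2-fold. At the adjusted p alone, ITPKB, an inositol trisphosphate kinase (0.86 log2), the adaptor DOK3 (0.54) and the kinase LYN (0.42) were higher with anti-IgG and RASGRP3, an exchange factor of RAS (-0.65), was lower. Over all genes 7.15% passed it in either direction.

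The study names a set of genes that responded in several lines, a choice made on these samples and so no independent evidence of direction. Of 14 of them tested, VASP and CCL4 were called higher and RNF144B lower, beside 0.295% and 0.197% of all genes. The median of the 14 was 0.08 log2. SRGN, the proteoglycan serglycin, averaged 122.6 ± 15.1 with anti-IgG and 10.2 ± 0.29 in untreated 4-6, against 314.6 ± 13.7 with LT20 and 18.7 ± 0.90 in untreated 1-3 (SD, n = 3 each). It rose with both antibodies and more with LT20 (difference -0.85 log2, adjusted p = 0.00297 by limma). Its untreated signals were low, and the difference was -0.49 with signals below 1 set to 1 and -1.67 with the untreated triplicates exchanged. ZFP36L1, an mRNA decay factor, rose 5.41-fold with anti-IgG and 4.39-fold with LT20, with a difference of 0.30 log2 (interval 0.09 to 0.52). NREP (-0.20 log2), GLRX (0.16), SSBP3 (-0.12) and VPREB3 (0.00) were called lower with both antibodies, DAPP1 (-0.46) with anti-IgG alone and APBB1IP (0.18) with LT20 alone. None of these 6 differences passed the adjusted p, and all their intervals lay within 2-fold. By its own 2-fold filter the paper lists DAPP1 and APBB1IP as lowered by antibodies against either target.

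Rituximab, an anti-CD20 antibody with a human Fc part, was also given to SUDHL4. With rituximab in place of LT20 the difference was 2.33 log2 for SLAMF7, 1.80 for CCR7, 1.60 for MIR146A, 1.52 for DDIT3 and 0.79 for EGR1. It was -1.89 for RIPOR2, -1.16 for ELL3, -1.42 for HILPDA, -0.51 for CXCR4 and -0.32 for JUN. EGR1 gave 684.8, 736.2 and 832.4 with rituximab, above its LT20 arrays and below its anti-IgG arrays. These values share the anti-IgG arrays and all untreated arrays with those for LT20 and are set side by side only.

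REC1, a mantle cell lymphoma line, received both antibodies at the same dose and time, and since its anti-IgG and LT20 arrays have 1 untreated triplicate they could be set against each other directly. Of 8166 genes tested there, 25 were higher with anti-IgG (0.306%) and 29 lower (0.355%). Of the 21 genes higher in SUDHL4, 7 were called higher in REC1 (SLAMF7, MIR146A, UPP1, DDIT3, METRNL, GEM and HAVCR2) and 0 lower. Of the 14 lower genes, 2 were called lower (JUN and IKZF2) and 0 higher. SLAMF7 gave 199.2, 192.0 and 229.6 with anti-IgG, against 19.5, 25.3 and 23.9 with LT20 in REC1, a difference of 2.52 log2. HAVCR2 gave 191.2, 189.1 and 240.0 with anti-IgG, against 15.4, 30.5 and 15.6 with LT20 (2.63 log2). In both genes the groups were far apart. JUN gave 98.6, 135.9 and 108.0 with anti-IgG, against 227.5, 243.2 and 267.3 with LT20 (-1.02 log2), and its untreated REC1 cells averaged 226.3 ± 7.38 (SD, n = 3), so that there the anti-IgG arrays, not the LT20 arrays, stood apart from the untreated ones.

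**Figure D5:**
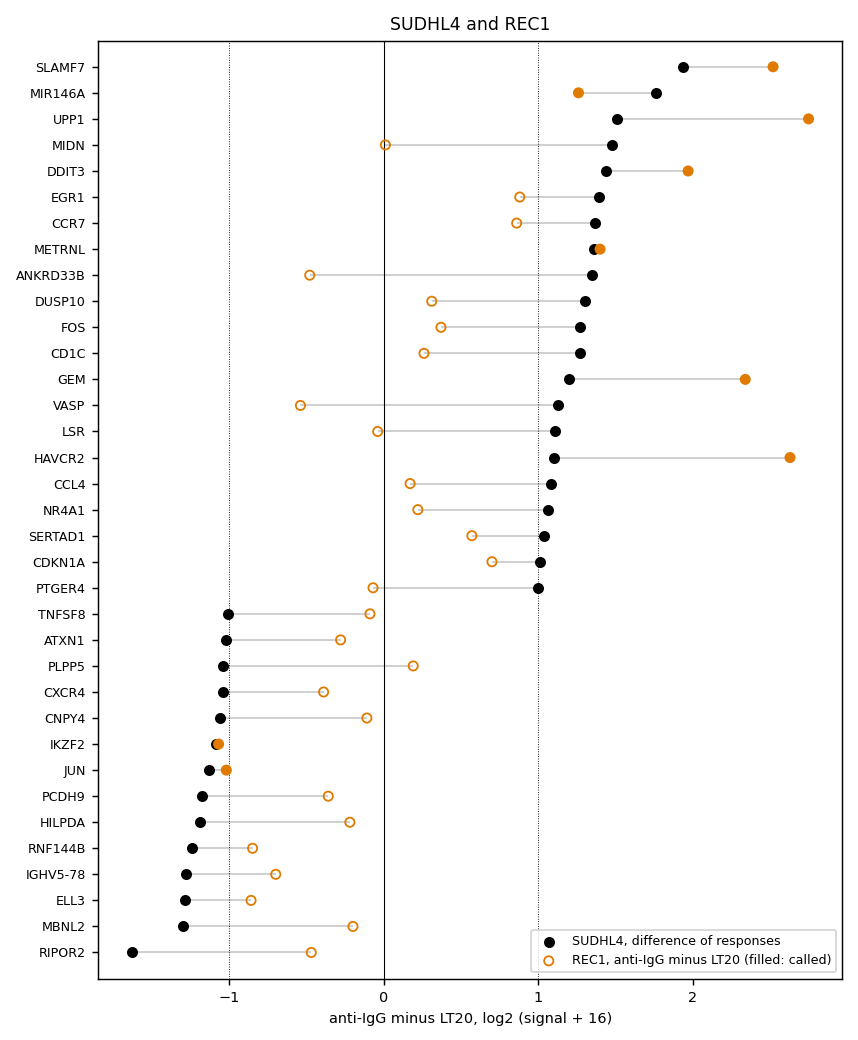
Anti-IgG minus LT20 (log2) in SUDHL4 (black, difference of responses) and in REC1 (orange, direct difference, filled where called) for the 35 genes called in SUDHL4. SLAMF7, UPP1, GEM and HAVCR2 lie further from 0 in REC1, MIDN, PTGER4 and LSR lie near 0 there (LSR with averages of 19.2 with anti-IgG and 17.7 with LT20, below the limit of 100), and METRNL, IKZF2 and JUN nearly coincide.

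The difference between the lines was tested for the 5 genes with the largest difference in each direction, in 1 limma fit of all 96 arrays. These genes were chosen by their SUDHL4 difference, which is part of the tested value, so the adjusted p-values are not free of that choice. The difference between the lines was called for UPP1 (SUDHL4 minus REC1 -1.24 log2, adjusted p = 0.000709 by limma), MIDN (1.47, adjusted p = 0.000118) and, with low signals in REC1, RIPOR2 (-1.16, adjusted p = 0.00734). RIPOR2 averaged 30.4 with anti-IgG and 47.4 with LT20 there, both below the limit of 100, and 166.6 in untreated cells. MBNL2 also passed (-1.10, adjusted p = 0.000655), but in REC1 it averaged 3.8 with anti-IgG, 6.6 with LT20 and 64.4 in untreated cells. Both treated groups were thus near 0, where a difference between the antibodies could not be measured, and the value is no measure of a difference between the lines. For SLAMF7, MIR146A, DDIT3, ELL3, IGHV5-78 and RNF144B it was not called, with values of -0.59 to 0.50 log2.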

How the data were processed

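RNA was measured on Affymetrix HG-U133 Plus 2.0 arrays. For each probe set the authors deposited a linear, unlogged intensity, obtained with GCOS software per the paper's methods and with MAS5 per the submitters' processing notes, with each array scaled to nearly the same total. The number of arrays, 3 per group, limits the precision. The authors' group means and change factors gave no value printed here. Which untreated triplicate belongs to which antibody follows the names of the change factor columns and the deposited listing of arrays per triplicate; in the means the names of the untreated SUDHL4 triplicates appear exchanged.

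After 16 was added, log2 signals of the 24 SUDHL4 arrays in 8 groups were fitted with limma 3.58.1 (R 4.3.3, data.table version 1.17.8) with a variance trend; REC1 was read from a fit of all 96 arrays. Adding 16 understates changes of low genes but can raise or lower the difference of responses. With signals below 1 set to 1 instead, FOS went from 1.27 to 0.01 log2 and UPP1 from 1.51 to 2.88. Gene names came from the platform annotation: 41097 probe sets have 1 symbol, 1801 several and 11777 none, and only the first kind was named. Named genes are the 10 largest called differences in each direction whose changes did not overlap and whose direct difference had the same sign, the 3 most significant members of any list in which 3 or more were called, the study's list, and MS4A1, CD79B, FCGR2B and BLK. Other genes, and the EGR1 and FOS promoters searched, were chosen after their values were seen. Members and all 26 gene lists were chosen with earlier results of these data known. The fit was tested on simulated data. Alternatives were another added value, a floor of 1, no filter, quantile normalization, no trend, other arrays or controls, replicate blocks and leaving out each array.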

Additional observations from a re-analysis of the deposited data

Results flagged for a closer look

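Of the 10 genes compared between the lines, 4 passed the test for a difference in the size of anti-IgG against LT20, and for MBNL2, 1 of the 4, the test says nothing because both treated groups were near 0 in REC1. All 10 had been chosen by the SUDHL4 value that enters the test. UPP1 differed by -1.24 log2 (SUDHL4 minus REC1), with 1.51 in SUDHL4 and 2.75 in REC1, where it averaged 1575.9 ± 82.2 with anti-IgG and 222.0 ± 31.2 with LT20 (SD, n = 3 each). MIDN differed by 1.47, with 1.48 in SUDHL4 and 0.01 in REC1, where it averaged 436.0 ± 55.3 with anti-IgG and 432.7 ± 53.7 with LT20 (SD, n = 3 each). RIPOR2 differed by -1.16, with -1.63 in SUDHL4 and -0.47 in REC1, where both treated groups were below the limit of 100, at 30.4 ± 8.73 with anti-IgG and 47.4 ± 1.71 with LT20 (SD, n = 3 each). The value for MBNL2 was -1.10, with -1.30 in SUDHL4 and -0.20 in REC1, where it averaged 3.8 ± 4.26 with anti-IgG and 6.6 ± 3.06 with LT20 (SD, n = 3 each), beside 64.4 ± 2.07 in untreated cells (SD, n = 3).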

How the results depend on the processing

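The counts of genes higher and lower with anti-IgG, 21 and 14, were 22 and 23 with signals below 1 set to 1, 11 and 6 with 64 added, 29 and 22 without a filter on low signal, 24 and 15 with quantile normalization, 98 and 50 with the 6 untreated arrays as 1 control group and 657 and 293 with the untreated triplicates exchanged. Of the 35 genes 30, 16, 34, 34, 24 and 17 were still called under these settings in the same order, and all 35 without the trend, on the 12 arrays alone and in a fit of all 96. Without the fold limit, a setting chosen after seeing the data, the counts were 318 and 190, and with rituximab in place of LT20 they were 16 and 12. Exchanging the untreated triplicates gave IGHV5-78 0.32, CNPY4 0.03, PTGER4 -0.13 and ANKRD33B -2.11 log2, and ANKRD33B was -0.38 with 1 control group. The anti-IgG response had 145 lower genes with 64 added and 280 higher ones with the triplicates exchanged, and the LT20 response had 83 higher and 101 lower genes with 64 added and 405 lower ones with the exchange. Between the untreated triplicates the counts, 46 and 26, were 83 and 40 with the floor of 1, 5 and 14 with 64 added and 24 and 46 after quantile normalization, and 40 lower without a filter, and REC1 had 6 lower genes with 64 added; these were chosen after seeing the data. SGK1 was called after quantile normalization (1.14 log2) and HAVCR2 was not (0.98). The causes of these changes were not tested.

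Leaving out single arrays gave 17 to 26 higher and 10 to 15 lower genes for the difference, 176 to 196 and 236 to 277 for anti-IgG and 122 to 132 and 192 to 244 for LT20. Arrays with the same number share only that number: the correlations of their deviations were -0.0564, 0.0955 and 0.122 for LT20 with untreated 1-3 and -0.115, -0.222 and -0.0379 for anti-IgG with LT20. With the replicate number as a random block (correlation -0.0423) the counts stayed at 21 and 14 for the difference, 186 and 256 for anti-IgG and 128 and 217 for LT20, and a fixed replicate block left the LT20 counts at 128 and 217. With 3 arrays per group and signals near 0 in untreated cells, differences of genes such as FOS and NR4A1 depend on the added value.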
